A study of Mus musculus with 8 samples.

Results

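*Ubb*, *Itm2b*, *Cst3*, *Cd81* and *Apoe* are 5 genes with short, abundant transcripts, out of 24051 genes in the snRNAseq (single nucleus RNA sequencing) matrices. They were chosen by name because their levels were lower in mutant than in control nuclei of the mouse hippocampus, so that their difference in these nuclei is given as a description, with no test. Bulk RNAseq of whole hippocampus, made from other libraries that played no part in the choice, is the comparison that was tested. Each gene was followed through 18 of the 21 deposited cell types, those with at least 10 nuclei in each of the 4 samples, and then set against its level in bulk RNA.

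The study compared *Wls* fl/-;*Gfap-Cre* mice (mutant) with *Wls* fl/+;*Gfap-Cre* mice (control), both carrying the *Gfap-Cre* transgene and 1 floxed copy of *Wls*, at 12 weeks of age. The other copy is an inherited knockout allele (-) in mutants and a wild-type allele (+) in controls. Cells without Cre thus also differ in *Wls* genotype between the groups. *Wls* encodes the membrane protein that Wnts need for secretion, and Cre is under the control of the *Gfap* promoter, so that a floxed copy is lost only from progenitors and cells in which that promoter has been active. For each assay 2 mutant and 2 control mice were used, 1 library per mouse, from both hippocampi of that mouse. Bulk RNA was extracted from whole tissue, whereas nuclei were released by homogenization in detergent, collected from a density gradient and sequenced with a 10x Genomics 3′ kit.

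A nucleus holds unspliced and retained RNA, and most mature messenger RNA is found in the cytoplasm, on ribosomes or on the endoplasmic reticulum. Long genes with many introns therefore give much of the signal in snRNAseq, whereas short genes whose messengers are exported depend on the little mature RNA in or adhering to the nucleus. The 5 genes are compact and differ in role. *Ubb* encodes a chain of ubiquitin units and is one of the stress-inducible sources of ubiquitin, *Itm2b* encodes BRI2, a membrane protein that binds the amyloid precursor protein, *Cst3* encodes cystatin C, a secreted inhibitor of cysteine proteases, *Cd81* encodes a tetraspanin of the plasma membrane and of vesicles, and *Apoe* encodes the main lipid carrier released by astrocytes.

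Several features of the libraries touch all that follows. Bulk libraries held 56002381 to 79576196 expected counts, and snRNAseq samples held 5304 to 10460 nuclei with a median of 4128 to 7544 UMIs (unique molecular identifiers) per nucleus. At most 21 cell barcodes were shared by any pair of snRNAseq samples, or 0.309% of the smaller one. *Wls* checked the genotype, with 20.7 and 27.4 UMIs in control nuclei against 6.96 and 11.7 in mutant nuclei, and 13.3 and 13.1 against 3.61 and 6.86 expected counts in bulk RNA, each scaled to a library total of 1000000 (CPM). All mice are labelled male. No snRNAseq sample went against this label, but both bulk libraries of replicate 2 went against the label, with 521 (control) and 230 (mutant) CPM of the female-specific *Xist* and 0.343 and 0.352 of the Y-linked *Ddx3y*. Bulk results are therefore also given within each replicate number. Dentate granule cells (GC) were few in mutants, with 90 and 463 nuclei against 2336 and 2007 in controls. In GC, *Lct*, a transcript of the dorsal dentate gyrus, was at 25.2 and 28.1 CPM in controls against 12.1 and 9.34 CPM in mutants, and *Trhr*, a ventral one, at 6.68 and 7.44 CPM against 60.4 and 56.9 CPM, both chosen after the members' values were seen. In values of GC a different mixture of dorsal and ventral cells and a change within a cell cannot be told apart. The deposited labels inhibtory neurons 14 and excitatory neurons 19 ranked first and second of all types for the summed markers of fibroblasts and meninges, at 246 and 92.3 times the median type, and go against their neuronal names. Inhibtory neurons 14 also ranked first for endothelium (210.5 times) and ependyma (30.7 times). It was second for astrocytes, oligodendrocyte precursors, oligodendrocytes, microglia and choroid plexus. Excitatory neurons 19 also ranked first for CA3 markers (6.56 times). Of the other named types, GC, CA2, mossy cells (MC), astrocytes, oligodendrocytes, oligodendrocyte precursors (OPC) and microglia were each the highest type for their own markers, whereas CA1 was second to excitatory neurons 7 and CA3 was not among the 3 highest for its own markers.

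All 5 genes are protein-coding and compact in the GRCm38 (mm10) annotation. *Ubb* lies on the plus strand at chr11:62551171-62553213 and spans 2043 bp with 1675 bp of exon, which puts it at the 1.36 percentile of gene body length among the genes ranked here. *Apoe* is at chr7:19696109-19699188, minus strand, with a gene body of 3080 bp, and *Cst3* at chr2:148871722-148875692, minus strand, with 3971 bp. *Cd81* (chr7:143052739-143067934, plus strand) and *Itm2b* (chr14:73362226-73385289, minus strand) are longer, at 15196 and 23064 bp, but hold only 2879 and 2732 bp of exon. Since the 3′ kit primes on runs of A, introns were also searched on the coding strand for runs of at least 10 A. *Itm2b* had 3 such runs, the same as the median gene, and *Ubb*, *Cst3*, *Cd81* and *Apoe* had 0, as had 17.2% of 10723 genes.

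Promoter sequences are shown because the 5 transcripts were low together. The bases just before the start site (250 for *Ubb*, 100 for the others, from RefSeq, GRCm38.p6) are printed in the direction of transcription, and capitals mark CCAAT and GGGCGG, found on either strand.
Ubb, chr11:62550921-62551170, plus strand: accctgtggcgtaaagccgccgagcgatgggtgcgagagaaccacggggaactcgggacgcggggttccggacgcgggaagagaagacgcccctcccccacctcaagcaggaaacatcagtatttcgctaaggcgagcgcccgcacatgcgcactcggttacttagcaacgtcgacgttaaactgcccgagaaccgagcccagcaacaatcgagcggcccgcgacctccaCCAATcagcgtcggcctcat
Itm2b, chr14:73385290-73385389, minus strand: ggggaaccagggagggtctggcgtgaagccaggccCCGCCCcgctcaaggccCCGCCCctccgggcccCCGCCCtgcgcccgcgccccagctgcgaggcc
Cst3, chr2:148875513-148875612, minus strand: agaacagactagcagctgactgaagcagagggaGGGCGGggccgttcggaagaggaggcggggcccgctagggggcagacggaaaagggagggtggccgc
Cd81, chr7:143052650-143052749, plus strand: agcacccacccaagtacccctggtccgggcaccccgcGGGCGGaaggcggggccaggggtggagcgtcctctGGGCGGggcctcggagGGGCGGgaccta
Apoe, chr7:19699189-19699288, minus strand: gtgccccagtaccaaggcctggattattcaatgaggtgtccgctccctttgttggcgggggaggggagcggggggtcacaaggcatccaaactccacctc
The start site used for *Cst3* lies 180 bases, and that for *Cd81* 11 bases, from the start of the gene in the annotation. Within 250 bases GGGCGG occurred 3 times in *Itm2b*, 3 times in *Cd81* and once in *Cst3*, and 32.7% of 32851 promoters held it. *Ubb* held CCAAT once, as did 33.8% of promoters at least once, and none of the 5 held TATAAA (12.4% of promoters) or the heat shock element core GAANNTTC (6.69%). These are matches of letters and not binding sites.

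*Ubb* was the member with the widest difference in nuclei. Its level was 116 and 139 CPM in control replicates 1 and 2 and 46.3 and 41.7 CPM in mutant replicates 1 and 2, over all nuclei of a sample. The groups did not overlap, and the mean was 2.90-fold lower in mutants. Both mutant samples lay below both control samples in 18 of 18 cell types, where 22.7% of all pairs of a gene and a cell type did so and 18% lay the other way. As members were chosen from this contrast, nothing is read from that share. Among 10739 genes with a mean of at least 10 CPM, *Ubb* ranked second from the lowest in its mean log2 ratio over cell types, after the deleted *Wls*.

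The *Ubb* difference was seen in neurons and glia. In CA1 pyramidal cells it was at 79.1 and 98.5 CPM in controls and 39.5 and 32.2 CPM in mutants, and in GC at 139 and 141 CPM against 45.9 and 41.8 CPM. Oligodendrocytes gave the largest ratio, 274 and 343 CPM against 35.9 and 105 CPM, a log2 ratio of -2.13, although mutant replicate 1 held only 5 *Ubb* UMIs there. Microglia gave the smallest, with 237 and 243 CPM against 186 and 74.4 CPM and a log2 ratio of -0.88, on 4 UMIs in mutant replicate 1. The median over cell types was a 2.68-fold lower level. Counting nuclei in place of UMIs gave the same order over all nuclei of a sample. After each nucleus was thinned to 1500 UMIs, 18.8% (95% exact binomial interval 17.9 to 19.8) and 22.8% (21.8 to 23.7) of control nuclei held a *Ubb* UMI, against 7.88% (7.17 to 8.64) and 7.97% (7.46 to 8.51) of mutant nuclei. Such intervals cover counting error only. Without thinning the shares were 47.9 and 63.7% against 19.9 and 24.4%. By cell type the thinned share was lower in both mutants in 15 of 18 types. In inhibtory neurons 18, a small type, it was 8.70 and 4.17% in controls against 15.4 and 6.67% in mutants.

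*Itm2b* was found in neurons and glia. Its level over all nuclei was 309 and 316 CPM in controls and 163 and 118 CPM in mutants, a mean 2.23-fold lower, and the mutants lay below the controls in 17 of 18 types. The exception was excitatory neurons 13, in which mutant replicate 1 (117.5 CPM) was just above control replicate 1 (116.2 CPM). The largest ratio was in GC, in which the dorsal and ventral transcripts also differed, with 365 and 302 CPM in controls against 94.2 and 68.3 CPM in mutants, which is a log2 ratio of -2.04 and a 4.11-fold lower level. Astrocytes held 564 and 393 CPM against 249 and 166 CPM, and microglia 512 and 446 CPM against 279 and 311 CPM. Mutant replicate 2 was below mutant replicate 1 in the pooled nuclei, CA1, GC and astrocytes, and above it in microglia.

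*Cst3* transcripts were concentrated in astrocytes and microglia. Astrocytes held 4734 and 3778 CPM in controls and 1799 and 1711 CPM in mutants, and microglia 2517 and 3161 CPM against 1533 and 1210 CPM. In neurons the level was far lower and the ratio alike. CA1 held 78.4 and 99.4 CPM against 49.8 and 43.1 CPM, and GC 116 and 106 CPM against 60.4 and 43.8 CPM. Both mutants were below both controls in 17 of 18 types, the exception being inhibtory neurons 18, and the log2 ratio ran from -0.53 there to -1.36 in inhibtory neurons 12. The median fall in level was 2.01-fold.

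*Cd81* was highest in astrocytes, followed in controls by inhibtory neurons 14, oligodendrocytes, excitatory neurons 19 and OPC. Astrocytes held 1008 and 812 CPM in controls against 410 and 408 CPM in mutants, and oligodendrocytes 608 and 708 CPM against 258 and 294 CPM. Neurons held little of it, 43.7 and 51.9 CPM in CA1 controls against 27.3 and 30.4 CPM in mutants. Microglia were the only type in which the groups overlapped, with 309 and 354 CPM in controls and 325 and 175 CPM in mutants, on 7 UMIs in mutant replicate 1. The ratio was the mildest of the 5, with a median level 1.74-fold lower and log2 ratios of -0.41 to -1.65.

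*Apoe* was the member with the least even replicates. Over all nuclei it was at 150 and 384 CPM in controls and 65.6 and 125 CPM in mutants, so that control replicate 2 stood far above control replicate 1. Astrocytes held 3478 and 6770 CPM against 2556 and 2121 CPM, OPC 693 and 1689 CPM against 411 and 370 CPM, and oligodendrocytes 307 and 985 CPM against 143 and 302 CPM. Both mutants were below both controls in 12 of 18 types. The groups overlapped in CA1, CA2, CA3, MC, excitatory neurons 8 and inhibtory neurons 18. CA2 held 15.5 and 47.1 CPM in controls and 24.2 and 33.6 CPM in mutants, and its log2 ratio of -0.11 was the nearest to 0. Without control replicate 2 the mean log2 ratio of *Apoe* over cell types fell in size from -0.96 to -0.37. Among the members, *Apoe* thus rested most on 1 sample, and for *Ubb*, *Itm2b*, *Cst3* and *Cd81* the ratio without any 1 sample stayed between -0.78 and -1.62.

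**Figure D1:**
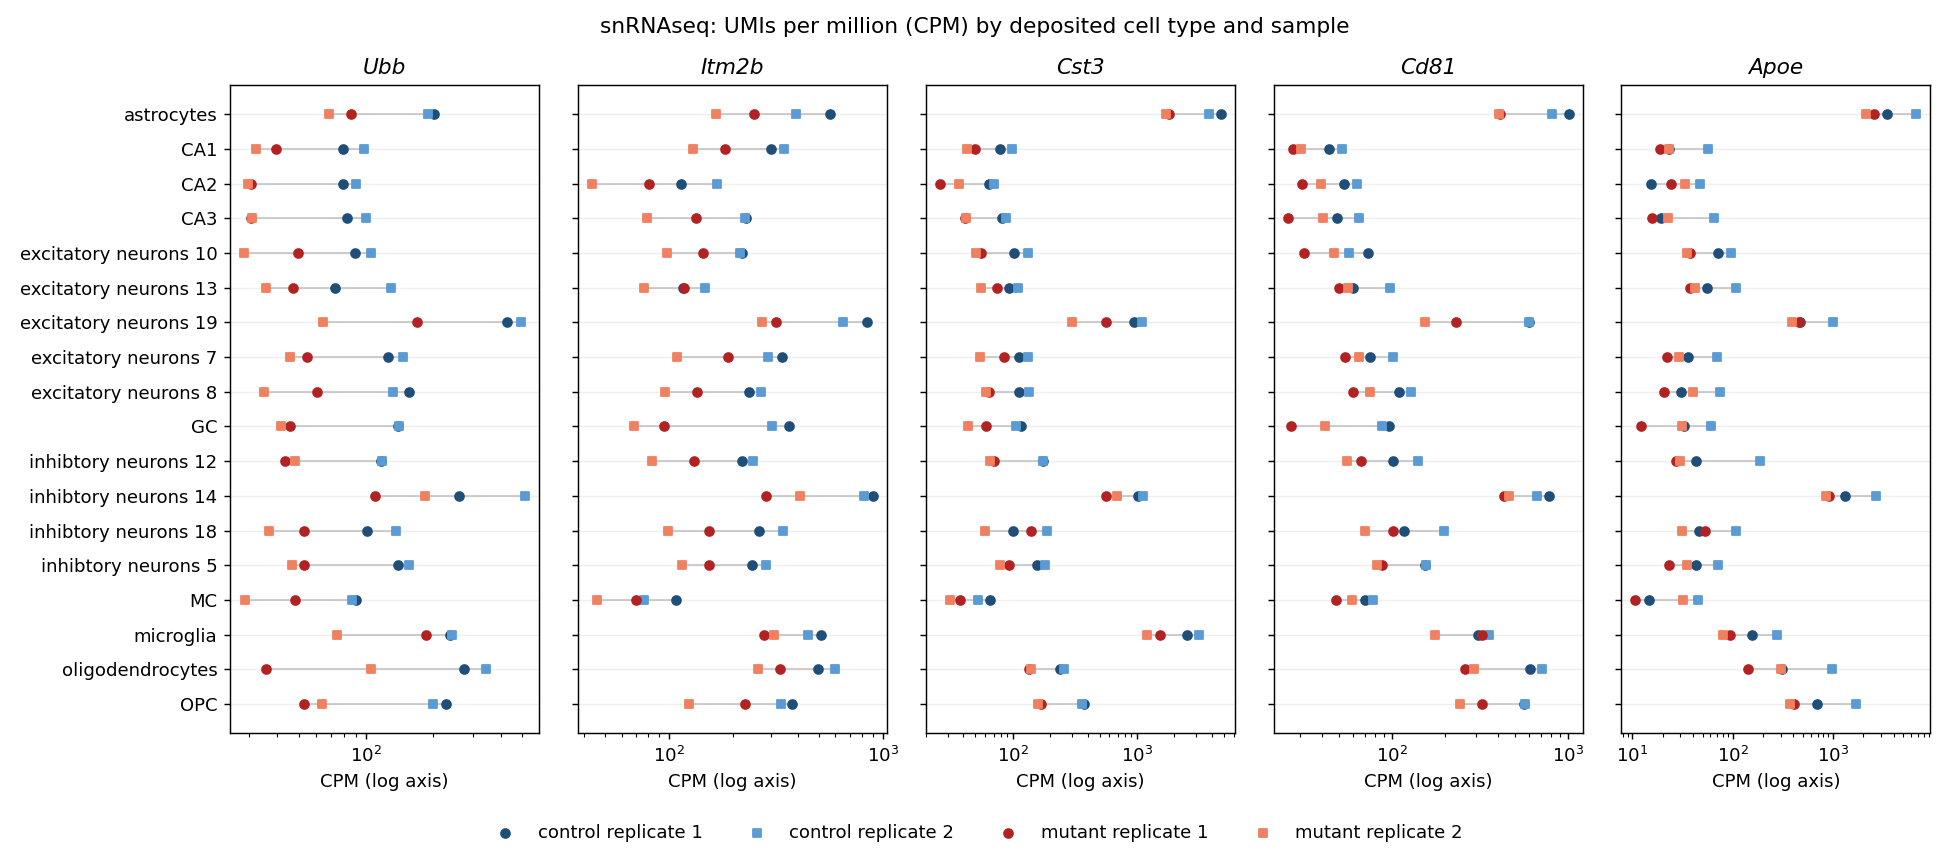
Level of each gene in CPM (UMIs scaled to a total of 1000000, log axis) in 18 deposited cell types, with 1 point per snRNAseq sample and a grey line over their range. Red points (mutants) lie to the left of blue points (controls) in 18 of 18 types for *Ubb* and in 12 of 18 for *Apoe*, for which control replicate 2 is the highest point in each row.

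The order of cell types was set out from the control samples. *Cst3* and *Apoe* were highest in astrocytes, at means of 4256 and 5124 CPM, and *Cd81* too, at 910 CPM. *Ubb* and *Itm2b* were highest in excitatory neurons 19 (461 CPM) and inhibtory neurons 14 (860 CPM), the labels with fibroblast and meningeal markers. Neighbours in the order overlapped between control samples in 10 of 17 steps for *Cd81*, 11 for *Cst3*, 12 for *Itm2b*, 14 for *Ubb* and 15 for *Apoe*, so that most neighbouring types could not be ranked. Levels in neurons were also set against those in astrocytes of the same sample. In CA1, CA3 and GC *Apoe* was between 0.472 and 1.46% of its astrocyte level, *Cst3* between 1.66 and 3.36% and *Cd81* between 4.34 and 10.9%. For 8 astrocyte markers the same measure varied widely. It ran from 0 to 0.832% for the gap junction transcript *Gja1*, from 0 to 1.20% for the water channel transcript *Aqp4*, from 0.895 to 4.73% for the glutamate transporter transcript *Slc1a2* and from 0.752 to 46.95% for the bicarbonate transporter transcript *Slc4a4*, which was high in GC.

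Genes with a like pattern were sought for each member. Across 72 units of a cell type and sample, the genes with the highest Pearson correlation of log2(CPM + 1) were *Dad1* (0.88), *Hspa5* (0.87) and *Calr* (0.86) for *Ubb*, all of them genes of the endoplasmic reticulum. For *Itm2b* they were *Tmem59* (0.88), *Actb* (0.87) and *Dad1* (0.86), for *Cst3* *Sat1* (0.89), *Gna13* (0.88) and *Lamp2* (0.88), for *Cd81* *Lamp1* (0.92), *Tmbim6* (0.92) and *Cfl1* (0.88), and for *Apoe* the astrocyte genes *Plpp3* (0.89), *Epas1* (0.87) and *Ndrg2* (0.87). Among the members, *Cd81* and *Apoe* were the most alike (0.91) and *Ubb* and *Apoe* the least (0.64). These values are a description, since units share samples, depth and the genotype difference itself.

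In bulk RNA the mean of each member was higher, not lower, in the mutant. The 5 were among the most abundant transcripts there, each between the 99.2 and 99.9 percentiles of TPM (reads corrected for transcript length and scaled to the library). *Apoe* was at 2344 and 2332 TPM in controls and 2546 and 2517 TPM in mutants (means 2338 ± 8.53 and 2531 ± 20.3 TPM, SD, n = 2 each), and *Cd81* at 329 and 316 TPM against 373 and 370 TPM (323 ± 9.49 and 372 ± 1.87 TPM). *Cst3* was at 1593 and 1540 TPM against 1752 and 1618 TPM, and *Itm2b* at 742 and 714 TPM against 745 and 808 TPM. For these 4 the mutants lay above the controls, which on TMM-scaled CPM 25.8% of 20687 genes also did, with 25.4% the other way. *Ubb* was at 1588 and 1108 TPM in controls and 1371 and 1533 TPM in mutants, and its groups overlapped.

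**Figure D2:**
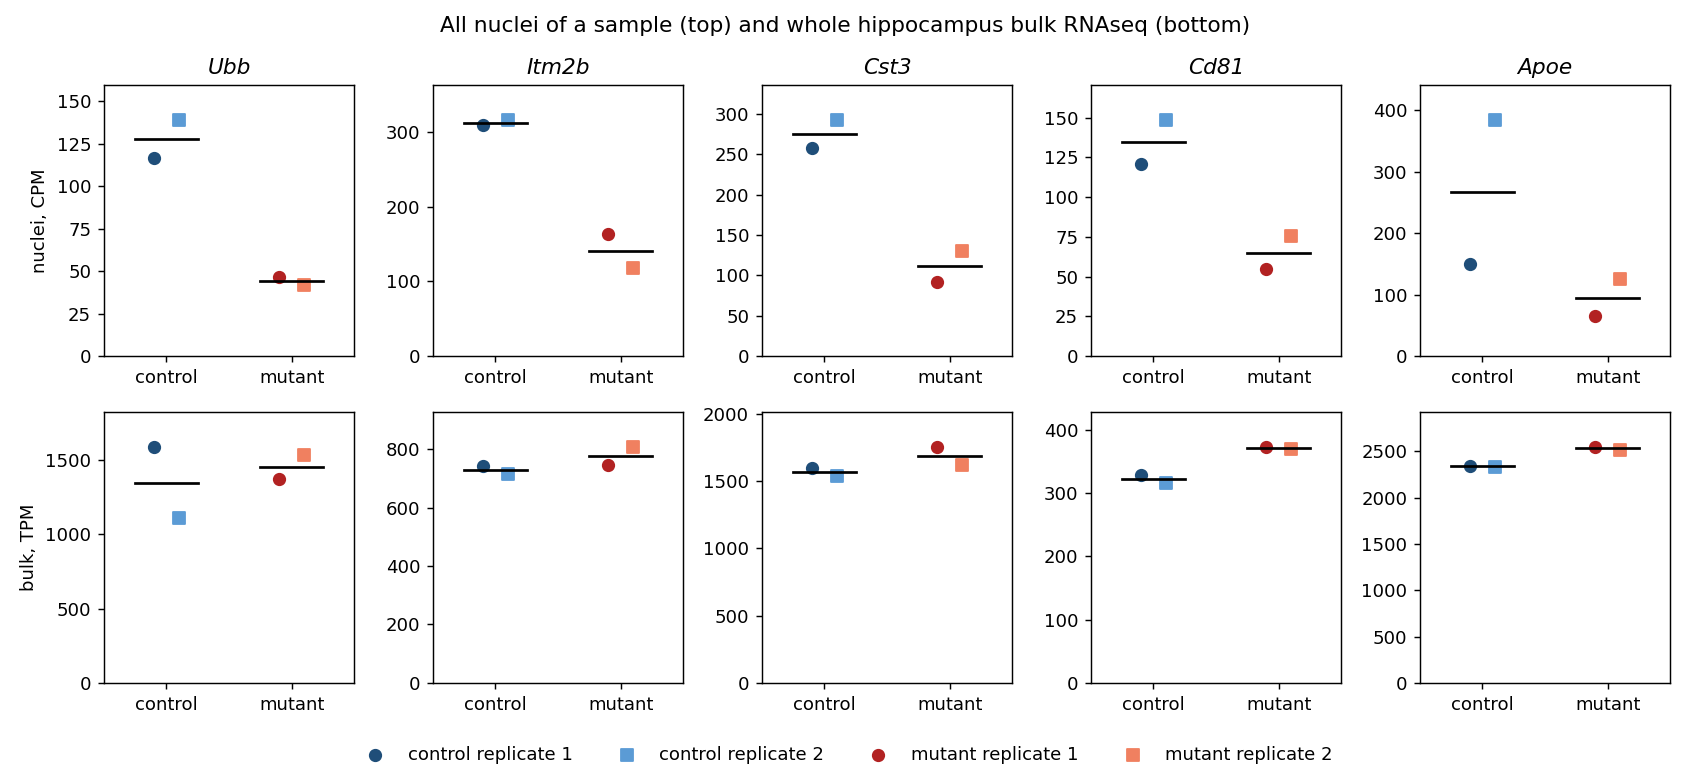
Level of each gene in every library, in CPM over all nuclei (top) and in TPM in bulk RNA (bottom), with bars at the mean of each genotype and axes that start at 0. Mutants are lower in the top row for each gene, and in the bottom row they are higher for *Itm2b*, *Cst3*, *Cd81* and *Apoe*, while *Ubb* overlaps. Mean TPM went from 728 in controls to 776 in mutants for *Itm2b*, 1566 to 1685 for *Cst3*, 323 to 372 for *Cd81* and 2338 to 2531 for *Apoe*. The log2 fold changes of 0.18 to 0.27 in the text are from edgeR on TMM-scaled counts and are larger than these TPM means give.

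None of the 5 passed the thresholds of FC > 3 and FDR < 0.05 in bulk RNA, which 0.198% of genes tested passed as lower and 0.0193% as higher in the mutant. In the quasi-likelihood fit of edgeR to 20687 genes, with FDR by the Benjamini-Hochberg method, the log2 fold change was 0.27 (SE 0.06) with an FDR of 0.113 for *Cd81*, 0.22 (SE 0.06) with 0.148 for *Apoe*, 0.18 (SE 0.05) with 0.180 for *Cst3*, 0.18 (SE 0.05) with 0.190 for *Itm2b* and 0.20 (SE 0.16) with 0.568 for *Ubb*. The unadjusted edgeR p was 0.00525 for *Cd81*, 0.0115 for *Apoe*, 0.0189 for *Cst3* and 0.0216 for *Itm2b*, below 0.05 as for 8.86% of all genes in that direction, and 0.262 for *Ubb*. Over all alternatives the FDR ran from 0.00630 to 0.623 for *Cd81* and from 0.0111 to 0.704 for *Apoe*, the low ends coming from DESeq2, by which *Cst3* also reached 0.0470. At an FDR below 0.05 alone, edgeR called 0.198% of genes higher. Within replicate 1, where both libraries match the male label, *Cd81*, *Apoe*, *Cst3* and *Itm2b* had 242, 1087, 605 and 659 CPM in the mutant against 207, 918, 534 and 604 in the control. Within replicate 2 the same genes had 237, 1027, 587 and 677 against 192, 904, 521 and 578, so that the direction was the same in both. *Ubb* had 928 against 945 in replicate 1 and 929 against 676 in replicate 2, and without control replicate 2 its log2 fold change was -0.03. A change in the share of cell types in the tissue and a change of RNA per cell cannot be told apart in bulk RNA, and mutants had few GC. The paper also reports that most transcripts it found raised in mutant bulk RNA are specific to the choroid plexus. It proposes that choroid plexus was carried into the mutant samples at dissection. The part of such tissue in the bulk levels of the members was not tested.

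Relative to bulk RNA, the members were scarcer in mutant than in control nuclei. The log2 ratio of CPM in nuclei to TPM in bulk went from -3.40 in controls to -5.04 in mutants for *Ubb*, from -3.13 to -4.73 for *Apoe*, from -2.51 to -3.92 for *Cst3*, from -1.26 to -2.51 for *Cd81* and from -1.22 to -2.47 for *Itm2b*. Over 13857 genes with at least 1 TPM in each bulk library the median change was 0.03. The change of each member was among the lowest 1% of these genes, from the 0.361 percentile for *Ubb* to the 0.866 percentile for *Itm2b*, which is given as a description because the nuclei chose the members. Already in controls *Ubb*, *Apoe* and *Cst3* had low ratios, at the 4.45, 5.75 and 10.4 percentiles, whereas *Cd81* and *Itm2b* were at the 29.7 and 30.3 percentiles. Without control replicate 2 of the nuclei the change of *Apoe* was -0.77, and its value with all samples was -1.60. These ratios pool all nuclei of a sample, and the shares of cell types differed between samples. With cell types at equal weight the change was -1.63 for *Ubb*, -1.295 for *Apoe*, -1.21 for *Cst3*, -1.18 for *Cd81* and -1.20 for *Itm2b*. The mice of the 2 assays differ, so that ratios are those of group means.

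The direction of the difference in nuclei moved with gene length over all genes. Of the 10732 genes with a length in the annotation, the 2147 with the shortest gene bodies (348 to 12604 bp) had a median log2 ratio of -0.26 with 79.9% of genes lower in mutants, and the 2147 with the longest (104279 to 4434882 bp) had 0.13 with 25.4% lower. *Ubb*, *Cst3* and *Apoe* are in the shortest of these 5 bins and *Itm2b* and *Cd81* in the next, which had a median of -0.09. Ordered by the ratio of nuclei to bulk in controls, the lowest of 5 bins had a median of -0.20 and the highest 0.08. Genes with no intronic run of A had a median of -0.22, over 1846 genes, and those with at least 1 run had 0.01. The members lay below the medians of their own length bins, at mean log2 ratios of -1.47 (*Ubb*), -1.07 (*Itm2b*), -1.05 (*Apoe*), -0.98 (*Cst3*) and -0.86 (*Cd81*), where 1 CPM was added to each level. As they were chosen for being low in these nuclei, nothing is read from that gap. Gene length, run content and the ratio to bulk go together, and their part in the members' difference was not tested.

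**Figure D3:**
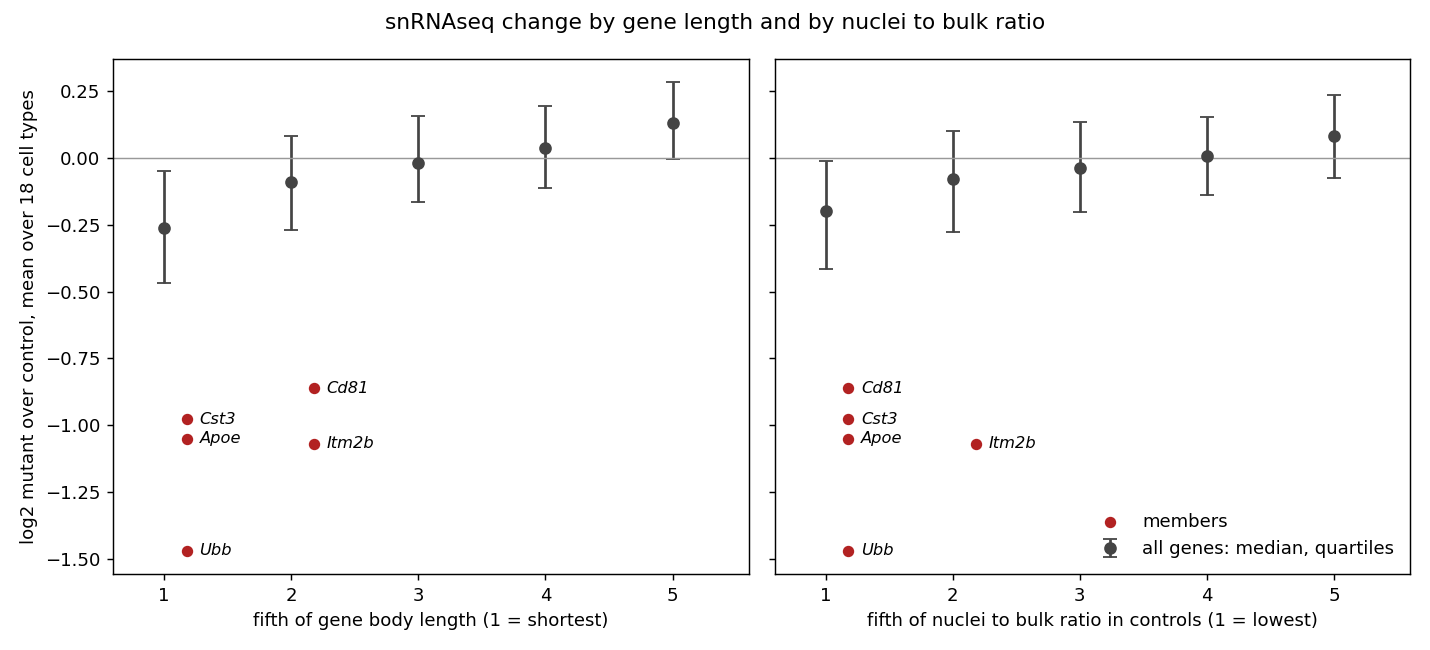
Mean log2 ratio of mutant to control over 18 cell types for genes in 5 bins of equal size, by gene body length (left) and by the nuclei to bulk ratio in controls (right). Grey points and bars are the median and quartiles of all genes, which climb from -0.26 to 0.13 on the left. Red points are the 5 genes, all at or below -0.86, which were chosen for being low in these nuclei.

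The partners of each member were taken as lists, and their counts are set beside 22.7% of 182213 pairs with both mutants below both controls, 0.0889% called lower in mutants (FC > 2 and FDR < 0.05) and 0.101% called higher. In the ubiquitin list, which holds genes of ubiquitin supply and turnover, both mutants were below both controls in 42.5% of 179 pairs and 0 were called in either direction by edgeR or DESeq2, with 19 lower and 0 higher at an unadjusted edgeR p below 0.05. *Uchl1*, which encodes a deubiquitinase, had this order in 14 of 18 types with a median control level 1.46-fold that of mutants. For *Ubb* the median was 2.68-fold, but *Ubb* was chosen for being low in these nuclei, so that nothing is read from that gap. In bulk RNA the median log2 fold change of the list was 0.06, with 0 genes called.

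Genes of amyloid precursor processing and the BRI2 family, the setting of *Itm2b*, were near the background at 27.9% of 272 pairs. *App* itself was level, with a median ratio of 1.02 and this order in 6 of 18 types, and *Itm2c*, which encodes the related BRI3, stood at 1.29-fold. The 1 call was of *Aplp1*, an *App* homologue, in GC, where 0.64% of all genes were called lower, with 343 and 417 CPM in controls against 167 and 198 CPM in mutants (edgeR log2 fold change -1.02, SE 0.18, FDR 0.0274). In bulk RNA *Aplp1* had a log2 fold change of 0.00 and an edgeR FDR of 0.989.

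Lysosomal genes, among them the cathepsins that cystatin C inhibits, stood further from the background, at 61.9% of 168 pairs. *Ctsl*, which encodes cathepsin L, was lower in mutants in GC, at 31.8 and 43.6 CPM against 4.83 and 12.8 CPM (edgeR log2 fold change -1.70, SE 0.32, FDR 0.0354). It was also lower in astrocytes, at 145 and 135 CPM against 48.7 and 46.1 CPM (edgeR log2 fold change -1.52, SE 0.22, FDR 0.00565). The lysosomal saposin precursor *Psap* and membrane protein *Lamp1* passed in no type, although both mutants were below both controls in 17 and 15 of 18 types. In bulk RNA the median log2 fold change of the list was 0.19 and 0 genes were called.

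Among tetraspanins and partners of *Cd81*, 39.3% of 135 pairs had both mutants below both controls, and calls went both ways. In oligodendrocytes 0.0892% of all genes were called lower, in OPC 0.121% and in astrocytes 0.253%. *Cd9*, a tetraspanin found in myelinating cells among others, was lower in mutant oligodendrocytes, at 321 and 400 CPM against 108 and 120 CPM (edgeR log2 fold change -1.61, SE 0.26, FDR 0.0109), in OPC (-1.34, SE 0.18, FDR 0.00219) and in astrocytes (-1.04, SE 0.22, FDR 0.0447). *Tspan9* was higher in mutant GC, as were 0.827% of genes there, at 7.21 and 7.75 CPM in controls against 33.8 and 26.6 CPM in mutants (edgeR log2 fold change 1.93, SE 0.27, FDR 0.00960). The neuronal *Tspan7* had a median ratio of 1.08.

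Apolipoproteins and lipid transport genes were near the background, at 24.2% of 231 pairs. *Clu*, which encodes clusterin, a second lipoprotein of astrocytes, was lower in mutant astrocytes, at 1505 and 1274 CPM against 768 and 404 CPM (edgeR log2 fold change -1.25, SE 0.22, FDR 0.0153), although the FDR by DESeq2 was 0.0925. The ApoE receptor gene *Lrp1*, which is long, had a median ratio of 1.00 and the mutants below the controls in 1 of 18 types. *Clu* in bulk RNA was at 863 and 865 TPM in controls against 829 and 984 TPM in mutants, with an edgeR FDR of 0.340.

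Other abundant short transcripts lay in the same direction. In a list of 20 such genes with no link in function, both mutants were below both controls in 59.3% of 300 pairs and 6 pairs were called lower, all in GC, the type in which *Lct* and *Trhr* differed by genotype too. These were *Actb* and *Actg1* (actins), *Ckb* (creatine kinase), *Ppia* (cyclophilin A) and the chaperones *Hspa8* and *Hsp90ab1*, with edgeR log2 fold changes of -1.01 to -1.68. *Ckb* was at 118 and 112 CPM in control GC and 33.8 and 38.5 CPM in mutant GC. The most abundant of the list in bulk RNA moved less in nuclei, with median control to mutant ratios of 1.43 for *Fth1*, 1.27 for *Eef1a1* and 1.18 for *Calm2*.

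Cytosolic ribosomal protein genes, whose messengers are short and translated in the cytoplasm, had both mutants below both controls in 51.6% of 1058 pairs, with 0 called by edgeR or DESeq2, and with 187 lower and 1 higher at an unadjusted edgeR p below 0.05. Their summed level over all nuclei was 2115 and 2350 CPM in controls against 1430 and 1720 CPM in mutants, and it was lower in both mutants in 17 of 18 types. The summed level of the 5 members was 955 and 1278 CPM against 422 and 491 CPM, lower in 18 of 18 types, with a median log2 ratio of -1.04 against -0.34 for ribosomal proteins. Only the members were chosen for being low in these nuclei, so that the gap is a description. Mitochondrially encoded transcripts, which reside outside the nucleus, did not show this order. They summed to 466 and 611 CPM in controls against 388 and 567 CPM in mutants, and were lower in both mutants in 2 types, higher in 3 and overlapping in the rest. The sum of nuclear retained non-coding transcripts, of which *Malat1* and *Meg3* are the best known, was likewise lower in 3 types and higher in 3. Gene by gene, both mutants were above both controls in 31.0% and below in 12.9% of 116 pairs for nuclear retained genes. For mitochondrially encoded genes these shares were 20.4% and 9.58% of 167 pairs, and over all pairs 18% and 22.7%. At an unadjusted edgeR p below 0.05, 21 pairs were higher and 2 lower for nuclear retained genes, and 11 and 3 for mitochondrially encoded ones. In bulk RNA 0 genes of any list passed the thresholds in edgeR or DESeq2, whereas at an unadjusted edgeR p below 0.05 8 of 194 were lower and 39 higher. Of the 14 pairs of a listed gene and a cell type called in nuclei, 13 lost the call without at least 1 sample, and *Cd9* in oligodendrocytes kept it without each. By DESeq2 *Ctsl* in astrocytes had no adjusted p, and with RLE factors the FDR of *Hsp90ab1* in GC was 0.0507. The 9 calls in GC were lost without mutant replicate 1 and without mutant replicate 2, and 3 of them (*Actg1*, *Aplp1* and *Hsp90ab1*) also without control replicate 2. The 3 calls in astrocytes were lost without control replicate 1, control replicate 2 or mutant replicate 2, and that of *Cd9* in OPC without mutant replicate 2. The direction of the 14 was the same in each alternative run.

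**Figure D4:**
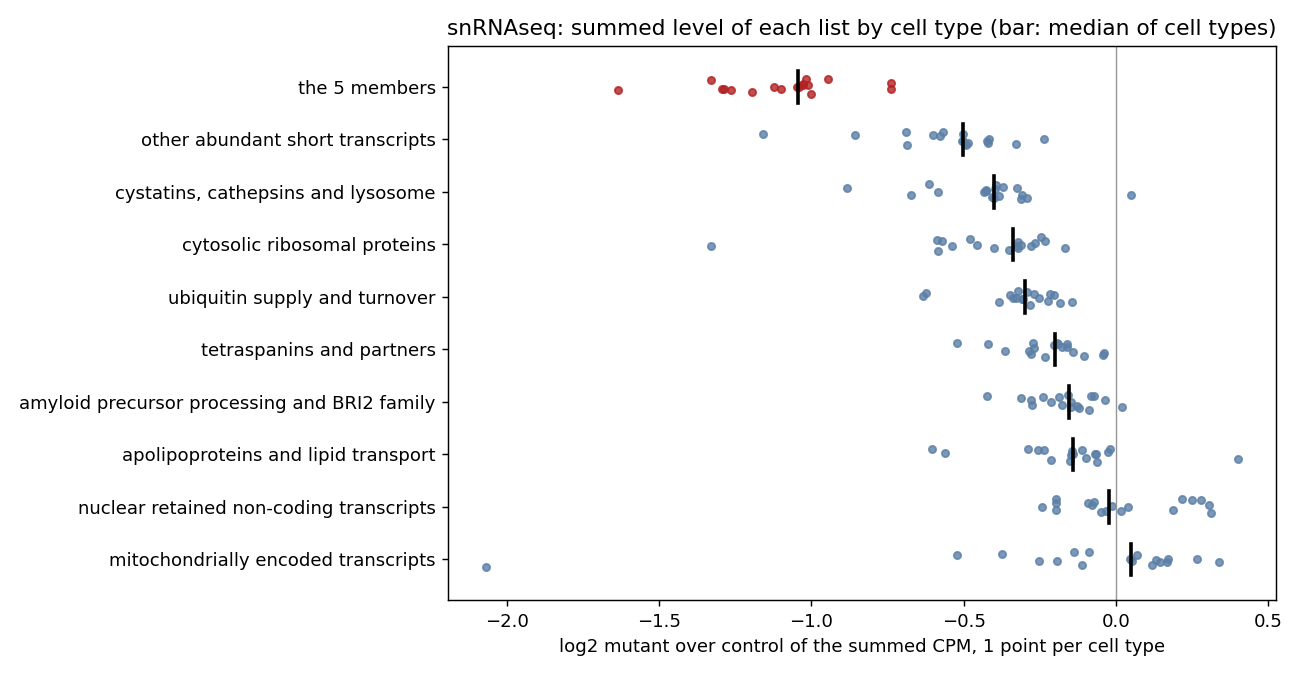
Log2 ratio of mutant to control of the summed CPM of each list, with 1 point per cell type and a bar at the median of the types. The 5 members (red), chosen for being low in these nuclei, lie between -1.64 and -0.74. Other abundant short transcripts have a median of -0.50, and mitochondrially encoded and nuclear retained transcripts have medians of 0.05 and -0.02.

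Some lists of markers of other cells also moved with genotype. Summed over all nuclei, the 4 granule cell markers were at 144 and 132 CPM in controls against 16.7 and 38.3 CPM in mutants, and they were lower in both mutants in 12 of 18 types, with log2 ratios of -3.17 to 0.09. In CA1 nuclei they summed to 18.7 and 17.9 CPM in controls against 3.83 and 7.92 CPM in mutants, with none of the 4 at 0. Markers of excitatory neurons were lower in both mutants in 17 types, those of CA2 in 14, with 2 higher, and those of astrocytes in 5, with 1 higher. Markers of CA1 were higher in both mutants in 12 types, those of endothelium in 7, of inhibitory neurons in 6, of microglia in 5 and of oligodendrocytes in 2, and each of these 5 lists was lower in 0. The remaining lists were lower and higher in 7 and 1 types (CA3), 4 and 5 (OPC), 4 and 0 (ependyma), 2 and 4 (fibroblasts and meninges), 1 and 3 (mossy cells) and 1 and 2 (choroid plexus). Of all pairs of a single gene and a cell type, 22.7% lay below and 18% above, so that small counts of types are not read as a change. The part of marker transcripts in the difference of the members was not tested. Nuclei were prepared mouse by mouse and each group holds 2 preparations, so that genotype and a chance difference between preparations cannot be told apart with these samples alone.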

How the data were processed

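Samples of both assays, 2 mutant and 2 control mice for each, were assigned to genotype and replicate by their titles. Bulk reads had been aligned by the authors to mm10 with RSEM 1.3.0 and Bowtie2 2.2.9, and they deposited an expected count and a TPM value for every gene, and a matrix of signal in which expected counts are divided by a size factor of the library. Reads of nuclei had been aligned by the authors to an index of unspliced mm10 transcripts with Cell Ranger 3.1.0, and the deposited matrices hold raw UMI counts of the nuclei they kept. The authors also deposited a size factor per nucleus, which is a ratio of its UMI total to that of a typical nucleus, and a cell type. RSEM divides reads that fit several genes, so that the level of *Ubb*, which holds near-identical repeats, is uncertain, as are UMI counts that keep unique reads.

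Here UMIs were summed per sample and deposited cell type (at least 10 nuclei in every sample) and scaled to a total of 1000000 (CPM). Expected counts, rounded, and summed UMIs were compared with edgeR 4.0.16 (R 4.3.3, filterByExpr, TMM, quasi-likelihood test, Benjamini-Hochberg adjustment), at FC above 3 in bulk RNA and above 2 in nuclei and FDR below 0.05. SE was obtained as log2 fold change divided by the square root of F. Alternatives used DESeq2 1.42.0, limma 3.58.1, RLE factors, no low-count filter, the replicate number as a block, other ways of scaling or selecting nuclei, and samples left out singly. No doublet caller was run, and an alternative left out the 5% of nuclei with most UMIs. The tests were tried on simulated counts in which 200 genes changed by 4-fold, with calls at FC above 2 and FDR below 0.05. In bulk RNA 79.5% of these were recovered, with 21 false calls. By cell type the share ran from 55% (excitatory neurons 19) to 92.5% (inhibtory neurons 12), with 0 (microglia) to 22 (excitatory neurons 7) false calls. Smaller changes were not simulated. Gene structures came from gencode vM21 (99.9% of 10739 genes matched) and promoters from RefSeq (5 of 5 members matched). Ratios over many genes added 1 CPM. Other computations used Python 3.11.15 with numpy 2.4.6, pandas 2.3.3, scipy 1.17.1 and matplotlib 3.10.9.

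Genes named are the members, the 3 genes of each list with the highest bulk TPM, or fewer where space required, list genes that passed a threshold (some list genes are not reported here), the 3 genes most like each member, markers used as checks, *Wls*, *Xist* and *Ddx3y*. The members and lists were chosen with earlier results of these data known. The labels do not say more on how far replicates were handled apart than that each was a single mouse. With 2 samples per group the smallest exact two-sided permutation p is above 0.05, and none is given. Depth limits small types, and 11 of 90 member values of mutant replicate 1 rest on fewer than 10 UMIs, against 2 in control replicate 1 and 0 in the other 2 samples.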

Additional observations from a re-analysis of the deposited data

Results flagged for a closer look

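*Itm2b*, *Cst3*, *Cd81* and *Apoe* had both mutants below both controls over all nuclei and, in separate libraries, both mutants above both controls in bulk RNA, with bulk log2 fold changes of 0.18, 0.18, 0.27 and 0.22. The difference between the 2 assays was not tested, since their units and mice differ. Over all nuclei the corresponding ratios of control to mutant were 2.23-fold, 2.47-fold, 2.07-fold and 2.80-fold. These pool cell types whose shares differed between samples. The medians over cell types were 2.13-fold, 2.01-fold, 1.74-fold and 2.12-fold. *Ubb* was not among them, because its bulk libraries overlapped, at 1588 and 1108 TPM in controls and 1371 and 1533 TPM in mutants.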

How the results depend on the processing

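The mean log2 ratio of each member over cell types in nuclei was below 0 in every alternative run. It was -1.50 for *Ubb*, and it moved by more than the spread between samples to -1.90 with UMIs per nucleus and no scaling, to -1.27 with thinned shares of nuclei and to -1.66 in nuclei with a low mitochondrial share. With no scaling it was -1.48 for *Itm2b* (from -1.09), -1.38 for *Cst3* (from -0.99) and -1.26 for *Cd81* (from -0.87), and with thinned shares it was -0.77 for *Cst3* and -0.76 for *Cd81*. By thinned shares both mutants lay below both controls in 15 of 18 types for *Ubb* and 18 for *Itm2b*. The counts were 17 for *Cst3*, 16 for *Cd81* and 9 for *Apoe*. Types with at least 50 nuclei, and all types but inhibtory neurons 14 and excitatory neurons 19, both chosen after seeing the data, gave -1.53 and -1.47 for *Ubb* and -0.99 and -0.97 for *Apoe*. When each sample was left out in turn, the range was -1.62 to -1.38 for *Ubb*, -1.33 to -0.85 for *Itm2b*, -1.11 to -0.87 for *Cst3*, -0.95 to -0.78 for *Cd81* and -1.55 to -0.37 for *Apoe*. The change of the nuclei to bulk ratio then ranged from -1.92 to -1.41 for *Ubb*, -1.50 to -1.03 for *Itm2b*, -1.68 to -1.18 for *Cst3*, -1.51 to -1.03 for *Cd81* and -2.14 to -0.77 for *Apoe*. In bulk RNA only *Ubb* reversed, to -0.0263 without control replicate 2, in 1 of 45 settings over the members. Leaving out 1 sample gave bulk log2 fold changes of -0.03 to 0.46 for *Ubb*.

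Pairs of a listed gene and a cell type called lower in nuclei were 13, from 10 genes, and 63 with no low-count filter. They numbered 11 to 58 when a sample was left out: 58 without control replicate 1, 38 without control replicate 2, 50 without mutant replicate 1 and 11 without mutant replicate 2. Pairs called higher were 1, and 6 with no filter, and 0 to 6 when a sample was left out. The cause was not tested. A fit with a sample left out assumes that the lone sample varies like the others. Same-numbered samples correlated at 0.0208 in bulk RNA and at 0.0424 (microglia) to 0.372 (excitatory neurons 7) in nuclei in their deviations from group means, and with only 2 pairs the numbers are not shown to pair the mice. With the replicate number as a block, 49 pairs were called lower and 5 higher in nuclei, and bulk log2 fold changes were 0.22 for *Ubb*, 0.18 for *Itm2b*, 0.18 for *Cst3*, 0.27 for *Cd81* and 0.21 for *Apoe*, with no member called.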

Other observations

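Chaperones and other genes of the heat shock response stood near *Ubb*, itself inducible by heat shock, among the lowest genes in mutant nuclei. The list of 18 genes was drawn up after *Ahsa1*, *Hspa8*, *Hsph1* and *Stip1* had been seen among the 20 lowest, and gets no test. In 198 of 238 pairs of a gene and a cell type (83.2%) both mutants were below both controls, and in 1 pair both were above. Over all pairs these shares were 22.7% and 18%. The count includes *Ahsa1*, *Hspa8*, *Hsph1* and *Stip1*, from which the list was drawn up, so that nothing is read from its share. *Ahsa1*, which encodes a co-chaperone of Hsp90, was at 49.5 and 64.6 CPM in control and 22.0 and 27.6 CPM in mutant nuclei, and *Hsph1*, a nucleotide exchange factor, at 53.2 and 55.9 CPM against 25.4 and 29.1 CPM. The inducible *Hspa1a* was at 1.95 and 3.61 CPM against 0.342 and 0.693 CPM. In bulk RNA the median log2 fold change of these genes was 0.04, and 0 were called by edgeR or DESeq2, with 1 lower and 1 higher at an unadjusted edgeR p below 0.05.

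Genes of protein entry into the endoplasmic reticulum and of glycosylation there, 20 genes, were also listed after their values were seen. Both mutants were below both controls in 65.9% of 302 pairs and above them in 4 pairs, where 22.7% of all pairs lay below and 18% above. As these values chose the list, nothing is read from its share. The median log2 ratio was -0.53 in nuclei and 0.02 in bulk RNA. *Spcs1*, a signal peptidase subunit, was at 45.0 and 38.5 CPM in control and 17.3 and 15.9 CPM in mutant nuclei. The members of the same complexes differed, since *Spcs3* was at 19.7 and 15.4 CPM against 16.2 and 13.4 CPM. Over all genes, 12 had both mutants below both controls in each of the 18 types, and *Ubb* was one of them.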
